A study of Mus musculus with 6 samples.

Results

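Deubiquitinating enzymes remove ubiquitin from proteins, and the genes examined here encode those other than A20, the ubiquitin-editing OTU-family enzyme encoded by Tnfaip3. Members were chosen from the deposited expression table by name: symbols that start with Usp and a digit, or with Otud, Otub or Uchl, and Zranb1, Vcpip1, Bap1, Brcc3 and Stambp. This gave 56 of the 10539 genes listed, of which 41 are ubiquitin-specific proteases (USP), 10 are ovarian tumour domain enzymes (OTU), 3 are ubiquitin C-terminal hydrolases (UCH) and 2 are JAMM metalloproteases. One USP entry, Usp6nl, carries the name of Usp6 but encodes a GTPase-activating protein of Rab proteins and is no protease. It is counted among the USP genes because the rule takes it. The rule goes by name alone, and other members, such as Usp18 described below, need not act on ubiquitin itself.

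RNA was sequenced from alveolar macrophages of C57BL/6 mice, the phagocytes that live in the lung airspace, and C/EBPβ was overexpressed in all of them. The comparison is between 3 libraries of such cells (group CEBPb) and 3 libraries of such cells treated with A20-Ad, an adenovirus for A20 (group CEBPb-A), and it asks how expression differs after that treatment. The protocol has all cells treated with an adenovirus, without naming the one given to the CEBPb cells, and the labels do not state how C/EBPβ was raised, the age of the mice or whether replicates are separate animals. P-values thus cover the spread among these 6 libraries alone, and that spread may be technical. In bulk RNA, fewer cells of a type and less RNA per cell cannot be told apart.

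The classes differ in how they work. USP, OTU and UCH enzymes are cysteine proteases, whereas JAMM enzymes use a zinc ion. USP enzymes are mostly large and act on many kinds of ubiquitin chain, OTU enzymes often prefer certain chain types, and UCH enzymes favour small adducts or work within larger complexes. In macrophages several of them act on the ubiquitin chains of receptor signalling that A20 also edits.

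Levels are FPKM, fragments scaled by gene length and by library total, so levels of different genes can be compared. Depth is unknown. The labels' treatment was not visible at the mouse gene of A20. Tnfaip3 stood at 7.94, 15.5 and 7.32 FPKM in CEBPb-A replicates 1, 2 and 3 and at 8.76, 17.7 and 19.2 FPKM in CEBPb (exact two-sided permutation p = 0.2, smallest possible 0.1), and the groups overlapped. The labels do not give the species of the A20 sequence in the virus, and every direction below is between libraries as labelled. Cebpb, the overexpressed gene in both groups, stood at 362.8 to 491.8 FPKM in CEBPb-A and at 367.8 to 500.02 FPKM in CEBPb. The library farthest from the rest was CEBPb-A replicate 3, with a first principal component score of 25.7 where the others had −11.7 to −0.095. Of 12 alveolar macrophage markers, 12 were listed, while 3 of 8 epithelial, 2 of 7 neutrophil, 2 of 7 stromal and endothelial and 0 of 8 lymphocyte markers were. The labels do not state how genes came to be listed, so a marker not listed need not be absent from the cells. The neutrophil gene S100a9, for one, was not listed although S100a8 was. The listed epithelial markers summed to 67.1 FPKM in CEBPb-A replicate 3 and to 29.1 to 39.3 FPKM in the other libraries, mostly through the club cell secretoglobin Scgb1a1. The neutrophil pair summed to 288 to 305 FPKM in CEBPb-A and 201 to 253 in CEBPb, mostly through the calcium-binding protein S100a8. The stromal and endothelial pair summed to 6.32 to 7.96 FPKM in CEBPb-A and 8.30 to 9.18 in CEBPb, mostly through Vwf. The log2 fold changes of Vwf and S100a8 were −0.23 and 0.35. They were −0.035 and 0.17 with the trend of fold change with transcript length, described below, taken out. Of the 12 macrophage markers 9 had a positive log2 fold change. The median of the 12 markers was 0.11, then 0.017 with the length trend taken out and 0.070 without CEBPb-A replicate 3. Among them, singled out after their values were seen, Car4 stood at 54.1 to 76.1 FPKM in CEBPb-A and 44.3 to 48.0 FPKM in CEBPb (0.52) and Ear2 at 861.8 to 1008 FPKM and 670.7 to 771.9 FPKM (0.35), and neither passed the test. The part of such cells in the results below was not tested.

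No deubiquitinase gene passed the test between CEBPb-A and CEBPb. Of the 56 members 53 had a mean of at least 1 FPKM and were tested, and 0 of 53 passed at an adjusted p of 0.05 (limma on log2(FPKM + 1), Benjamini-Hochberg over 9617 genes), against 0.052% of all genes tested. The lowest adjusted p was 0.588. At an unadjusted p under 0.05 there were 2 members lower in CEBPb-A, Usp18 and Usp33, and 0 higher, against 4.42% of all genes lower and 3.76% higher. The groups did not overlap downward for 6 members and upward for 0, against 8.86% and 7.89% of all genes.

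The fold changes were nevertheless mostly below 0. Of the 53 tested members 45 (84.9%) had a negative log2 fold change, CEBPb-A minus CEBPb, against 53.4% of all genes. The median over members was −0.10 and over all genes −0.013, in log2(FPKM + 1), a scale on which low genes appear to change less than they do. Members are not independent of each other, so this is a description of 6 libraries and no test was made of it. By class, 34 of 39 USP genes were negative (median −0.12), as were 7 of 9 OTU genes (−0.088), 2 of 3 UCH genes (−0.0090) and 2 of 2 metalloprotease genes (−0.022). The difference between classes was not tested.

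**Figure D1:**
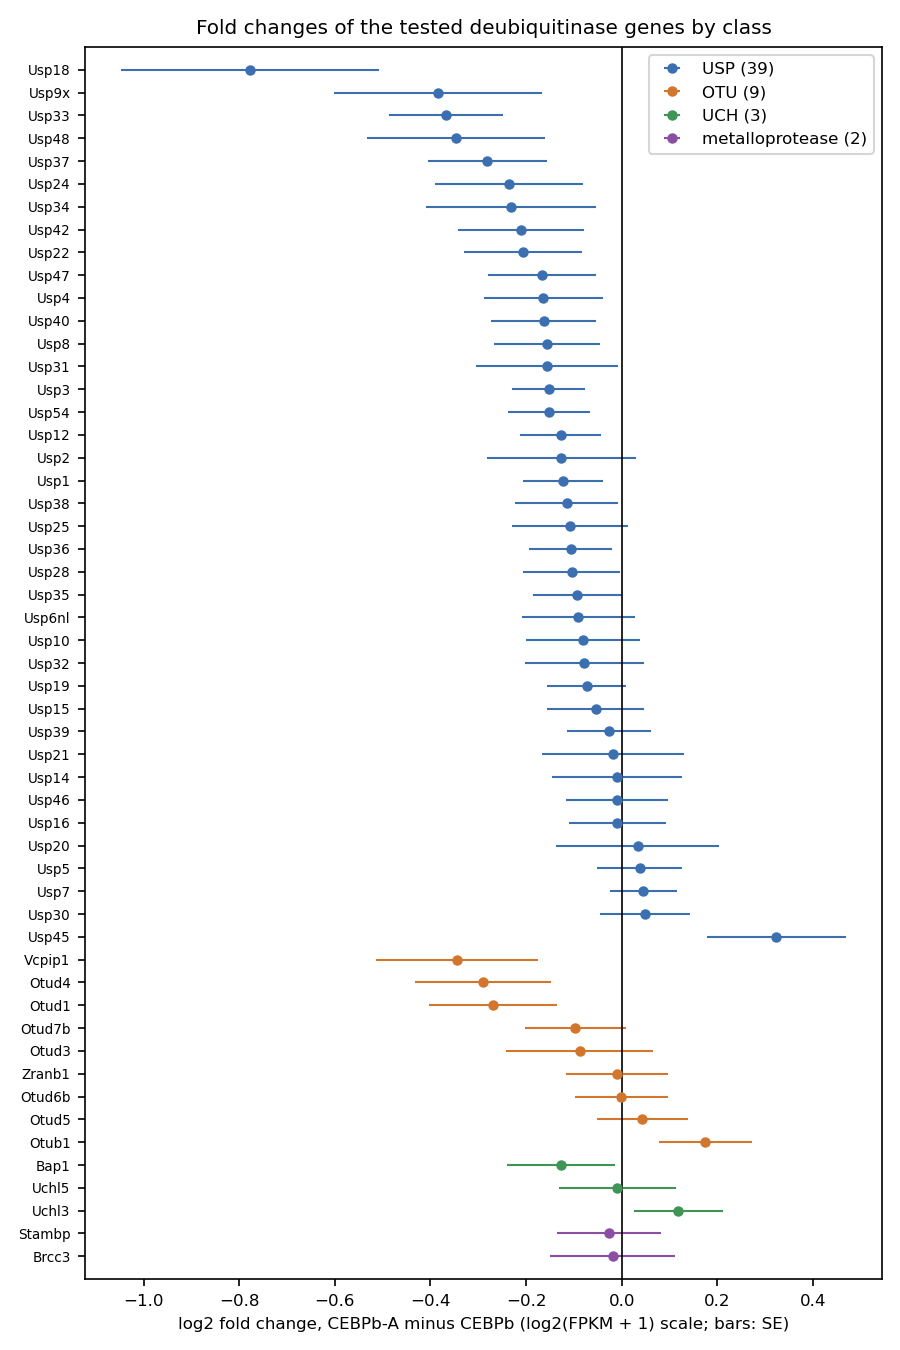
Log2 fold change (CEBPb-A minus CEBPb, horizontal axis, log2(FPKM + 1) scale) of the 53 tested members, grouped by class and sorted, with the standard error (SE) as bars. Most points lie left of 0, from −0.78 for Usp18 to 0.32 for Usp45, and 0 of 53 passed the test.

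Usp18 had the largest negative fold change of the members. It encodes the protease that removes the ubiquitin-like modifier ISG15, and it also restrains signalling at the type I interferon receptor. The gene lies on chromosome 6 (GRCm38, 121245906 to 121270917, plus strand). Its level was 5.74, 3.55 and 1.92 FPKM in CEBPb-A replicates 1, 2 and 3 and 6.15, 7.50 and 6.43 FPKM in CEBPb. Every CEBPb-A library lay below every CEBPb library, but CEBPb-A replicate 1 was close to the lowest of CEBPb, and the spread within CEBPb-A (3.74 ± 1.92 FPKM, SD, n = 3) was wider than within CEBPb (6.69 ± 0.712). The log2 fold change was −0.78 (standard error, SE, 0.27, limma adjusted p = 0.588), and it was −0.47 without CEBPb-A replicate 3.

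Interferon-induced genes that work with or beside Usp18 also had negative fold changes. Of 9 listed (Isg15, its activating enzyme Uba7, its conjugating enzyme Ube2l6, its mouse ligase Herc6, and Ifit1, Ifit3, Irf7, Stat2 and Oasl2), 9 had a negative log2 fold change with a median of −0.42, where 53.4% of all genes were negative with a median of −0.013. By limma 0 of the 9 passed the test, and 5 were lower at an unadjusted p under 0.05, against 4.42% of all genes. The list was written with earlier results of these data known, and its genes are not independent of each other. These shares are thus a description, and no test was made of them. Isg15 itself stood at 47.8, 45.05 and 37.1 FPKM in CEBPb-A and at 49.7, 67.8 and 58.1 FPKM in CEBPb. Herc6 stood at 3.67, 3.35 and 2.31 FPKM against 4.19, 5.12 and 3.87 FPKM. Oasl2, a member of the oligoadenylate synthetase family, stood at 7.73, 5.74 and 4.23 FPKM against 8.30, 11.3 and 9.58 FPKM, and Irf7, a transcription factor of the interferon response, at 36.3, 27.1 and 24.5 FPKM against 37.4, 39.5 and 41.1 FPKM. As for Usp18, in these 4 genes CEBPb-A replicate 1 lay nearest to CEBPb and CEBPb-A replicate 3 was the lowest of the 6 libraries. Without CEBPb-A replicate 3 the median of the list was −0.25.

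Usp33, which acts on signalling receptors such as Robo1 and the β-adrenergic receptor, was the member with the smallest p. It lies on chromosome 3 (152346478 to 152393617). Its level was 7.25, 7.12 and 5.30 FPKM in CEBPb-A and 8.62, 8.37 and 9.05 FPKM in CEBPb, so the groups did not overlap. The log2 fold change was −0.37 (SE 0.12, limma unadjusted p = 0.0161, adjusted p = 0.588), and −0.24 without CEBPb-A replicate 3. Usp9x, a very large USP enzyme whose substrates include the survival protein MCL1, stood at 13.0, 10.7 and 6.56 FPKM in CEBPb-A and at 14.2, 13.9 and 11.1 FPKM in CEBPb. Its groups overlapped, and its log2 fold change of −0.38 (SE 0.22) became −0.13 without CEBPb-A replicate 3.

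Usp45 was the member with the largest positive fold change. It encodes a protease of DNA repair that acts on the nuclease subunit ERCC1, and the gene lies on chromosome 4 (21767156 to 21837872). Its level was 4.42, 4.60 and 3.42 FPKM in CEBPb-A and 2.75, 2.72 and 3.90 FPKM in CEBPb. Replicates 1 and 2 were higher in CEBPb-A and replicate 3 was not, so the groups overlapped. The log2 fold change was 0.32 (SE 0.15, limma adjusted p = 0.588), and 0.43 without CEBPb-A replicate 3. Only 4 other USP genes had a positive value, the others being Usp30 (0.049), Usp7 (0.045), Usp5 (0.038) and Usp20 (0.033). Without CEBPb-A replicate 3 Usp5 was −0.026 and Usp20 −0.14, while Usp30 and Usp7 were 0.037 and 0.055. Usp30 sits in the outer mitochondrial membrane and opposes the removal of mitochondria, Usp7 acts on the ubiquitin ligase MDM2, and Usp5 takes free ubiquitin chains apart.

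**Figure D2:**
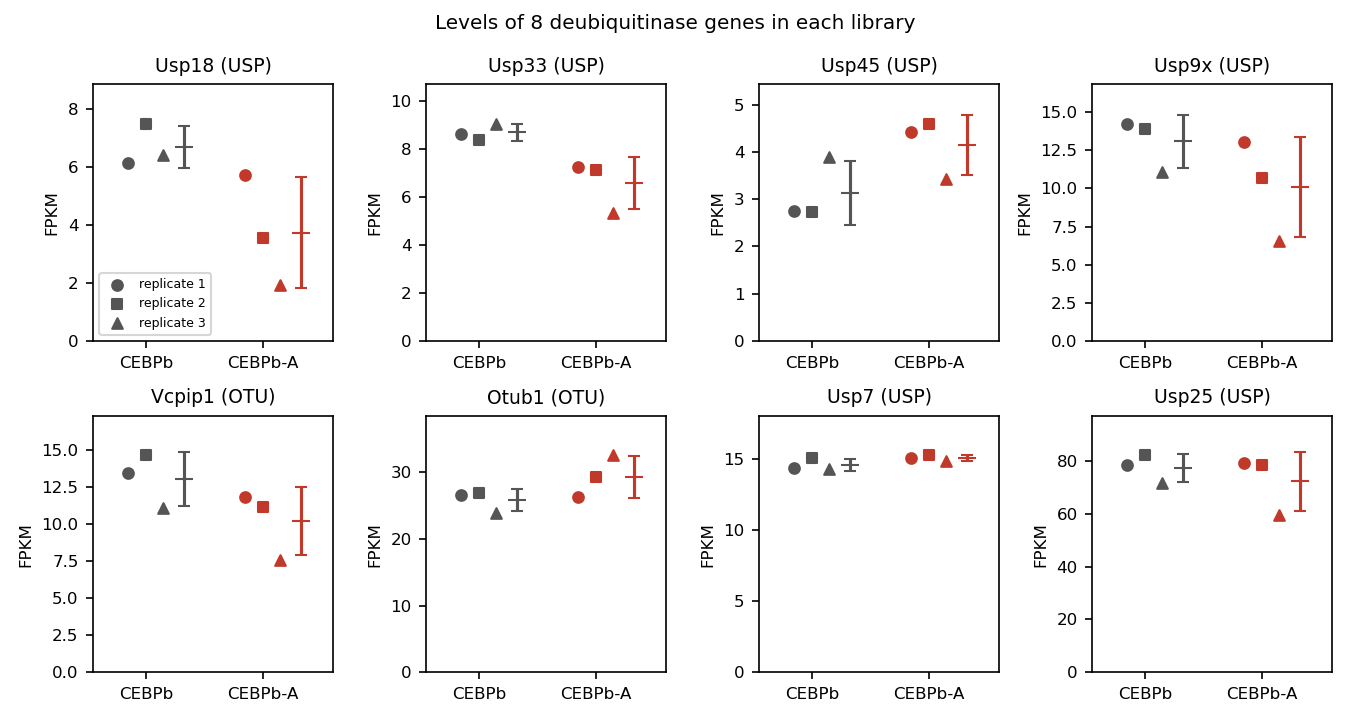
FPKM (vertical axes, each from 0) of 8 members in the 3 CEBPb and 3 CEBPb-A libraries, with symbols for the replicate number and the mean ± SD beside them. Usp18 and Usp33 are lower in every CEBPb-A library than in every CEBPb library, Usp45 is higher in replicates 1 and 2, and the groups of Usp7 overlap within a narrow range.

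The most abundant members were USP genes. Usp25, which acts on TRAF adaptors of cytokine and Toll-like receptor signalling, had the highest level, a mean of 74.8 FPKM at the 94.6th percentile of tested genes. Its 3 CEBPb-A libraries stood at 79.1, 78.3 and 59.4 FPKM and its CEBPb libraries at 78.4, 82.1 and 71.7 FPKM, which overlap (log2 fold change −0.11, SE 0.12). Usp8, which trims ubiquitin from receptors on endosomes, followed at 51.5, 49.1 and 38.6 FPKM in CEBPb-A and 52.5, 51.4 and 50.4 FPKM in CEBPb (−0.16, SE 0.11). In both, CEBPb-A replicate 3 was the lowest library, and without it the values were 0.026 for Usp25 and −0.032 for Usp8. The third in order was the OTU gene Otub1, then Usp5 (18.7 FPKM), Usp12 (16.4 FPKM) and Usp7 (14.8 FPKM). Usp25, Usp8 and Otub1 lay apart from each other in every library, whereas Usp5, Usp12 and Usp7 lay closer to each other.

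Usp12, a partner of the scaffold protein WDR48, stood at 16.2, 16.6 and 14.0 FPKM in CEBPb-A and at 17.1, 17.2 and 17.1 FPKM in CEBPb. The groups did not overlap, yet the log2 fold change was −0.13 (SE 0.084, limma adjusted p = 0.609), and −0.058 without CEBPb-A replicate 3. Usp7 was the steadiest member, with 15.1, 15.3 and 14.9 FPKM in CEBPb-A and 14.4, 15.1 and 14.3 FPKM in CEBPb and a within-group spread of 2.29% of its mean. The 95% interval of its log2 fold change was −0.12 to 0.21. Singled out after their values were seen, Usp3, a histone deubiquitinase, the nucleolar Usp36 and Usp54 also had groups that did not overlap, all lower in CEBPb-A. Usp3 stood at 7.05, 7.39 and 7.05 FPKM against 7.90, 8.29 and 8.05 FPKM, a log2 fold change of −0.15 (SE 0.077). Those of Usp36 and Usp54 were −0.11 and −0.15.

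Other USP genes with textbook roles had groups that overlapped. Usp22, the enzyme of the SAGA coactivator complex, had 7.15, 8.12 and 5.77 FPKM in CEBPb-A and 7.91, 8.84 and 7.81 FPKM in CEBPb (−0.21, SE 0.12), and its value was −0.090 without CEBPb-A replicate 3. Usp14, which edits ubiquitin chains on the proteasome, had 13.4, 13.8 and 10.5 FPKM against 13.1, 14.3 and 10.7 FPKM, low in replicate 3 of both groups, with a 95% interval of −0.33 to 0.31. Usp10, which binds the stress granule protein G3BP1, had a log2 fold change of −0.081 and an interval of −0.36 to 0.20. For Usp15, an enzyme of TGF-β signalling, these were −0.054 and −0.29 to 0.18, and for Usp21 −0.018 and −0.36 to 0.33. Differences inside these intervals could not be told from 0 with 3 libraries a group. Usp10 also overlaps a gene model on the same strand, Gm20388, so its reads may be shared. Usp11 (0.624 and 0.689 FPKM in CEBPb-A and CEBPb on average) was too low to be tested. Usp50 was listed at 0 in 5 libraries and at 0.0141 FPKM in CEBPb replicate 2. It overlaps Usp8 on the opposite strand. In all, 11 members overlap a protein-coding gene on the opposite strand, and the labels do not state whether counting used strand, so their reads may be shared.

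Among OTU genes, Otub1 had the highest level and the largest positive fold change. Otub1 holds ubiquitin-conjugating enzymes such as UBE2N in an inactive state besides cutting chains. Its level was 26.2, 29.2 and 32.5 FPKM in CEBPb-A and 26.6, 26.9 and 23.9 FPKM in CEBPb. Replicate 1 of CEBPb-A lay within the range of CEBPb and replicates 2 and 3 above it, and the log2 fold change was 0.17 (SE 0.097, limma adjusted p = 0.590), and 0.0998 without CEBPb-A replicate 3. Its paralogue Otub2 had 0.548 and 0.582 FPKM on average and was not tested.

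The OTU genes with the lowest values were Vcpip1, Otud4 and Otud1. Vcpip1, a partner of the ATPase VCP in membrane fusion, had 11.9, 11.2 and 7.58 FPKM in CEBPb-A and 13.5, 14.7 and 11.1 FPKM in CEBPb (log2 fold change −0.34, SE 0.17, limma adjusted p = 0.589). Otud4 had 8.71, 8.75 and 6.66 FPKM against 11.2, 10.8 and 8.25 FPKM (−0.29, SE 0.14), and Otud1 had 1.64, 1.598 and 1.06 FPKM against 2.03, 1.57 and 2.18 FPKM (−0.27, SE 0.13). In each of the 3 the groups overlapped and CEBPb-A replicate 3 was the lowest of the 6 libraries. Without it the values were −0.16, −0.18 and −0.15. Otud5, known as a brake on interferon production through TRAF3, stood at 12.1, 14.4 and 12.8 FPKM in CEBPb-A and at 12.5, 11.7 and 13.6 FPKM in CEBPb (0.043). Otud7b, which also acts on TRAF3, had a log2 fold change of −0.097 and Otud3 one of −0.088, which were −0.043 and 0.0088 without CEBPb-A replicate 3. Otud6b (−4.63e-04) and Zranb1, an enzyme for atypical ubiquitin chains, (−0.010) were nearest to 0, with 95% intervals of −0.23 to 0.23 and −0.26 to 0.24.

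The UCH genes showed no common direction in the fit reported. Bap1, the nuclear enzyme that removes ubiquitin from histone H2A, had 9.83, 9.58 and 7.60 FPKM in CEBPb-A and 9.12, 10.01 and 10.5 FPKM in CEBPb (−0.13, SE 0.11), and its value was −0.021 without CEBPb-A replicate 3. Uchl3, which cleaves small ubiquitin adducts, had 5.15, 5.95 and 5.39 FPKM against 5.37, 4.69 and 4.90 FPKM (0.12, SE 0.093). Uchl5, which works on the proteasome, had 6.07, 7.20 and 5.44 FPKM against 7.05, 6.19 and 5.57 FPKM (−0.0090, SE 0.12). In all 3 the groups overlapped. With the length trend, described below, taken out, Bap1, Uchl3 and Uchl5 were all negative (−0.094, −0.0095 and −0.057). Without CEBPb-A replicate 3 only Bap1 was negative. Uchl1, the neuronal member, is not among the 10539 genes listed.

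The metalloprotease genes were low, and their groups overlapped. Brcc3, which acts on the inflammasome sensor NLRP3 and in DNA repair complexes, had 1.16, 1.12 and 1.17 FPKM in CEBPb-A and 1.65, 1.06 and 0.896 FPKM in CEBPb (−0.019, SE 0.13). The spread lay in CEBPb, where replicate 1 was the highest and replicate 3 the lowest of the 6 libraries. Stambp, an endosomal enzyme of the ESCRT pathway, had 1.96, 2.15 and 1.66 FPKM against 1.70, 2.005 and 2.22 FPKM (−0.026, SE 0.11). The 95% intervals were −0.32 to 0.29 and −0.28 to 0.23. Stambp has a processed pseudogene copy, Stambp-ps1, which may share its reads.

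The downward lean of the members was uneven across libraries. The median deviation of the 53 members from the CEBPb mean came to −0.057, −0.040 and −0.20 for replicates 1, 2 and 3 of CEBPb-A (log2 scale). For the CEBPb libraries it came to 0.035, 0.017 and −0.066. CEBPb replicate 3 was thus lower than CEBPb-A replicates 1 and 2, and the groups overlapped. For all genes tested the same medians were −0.0029, 0.010 and −0.038 in CEBPb-A and 0.0098, 0.0067 and −0.010 in CEBPb. CEBPb-A replicate 3 was the lowest of the 6 libraries for 33 of 53 members, against 35.8% of all genes. In USP genes the CEBPb-A medians were −0.060, −0.047 and −0.24, and in OTU genes −0.11, 0.026 and −0.20. Those of UCH genes were −0.0038, 0.18 and −0.17. Without CEBPb-A replicate 3 the median log2 fold change was −0.043 over all members and 0.0011 over all genes, with 36 of 53 members (67.9%) and 49.6% of all genes negative. By class it was then −0.060 for USP, −0.043 for OTU, 0.072 for UCH and 0.0079 for metalloprotease genes. The members' share of all listed FPKM was 0.135% in CEBPb-A replicate 3 and 0.168% to 0.186% in the other 5 libraries.

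**Figure D3:**
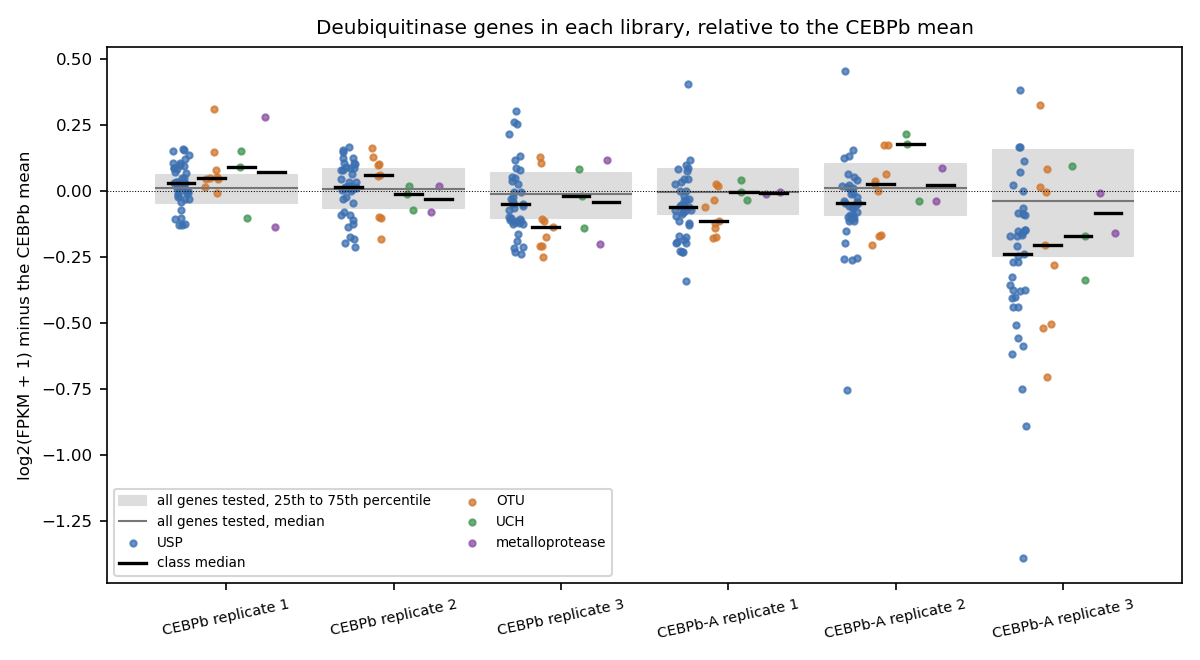
Deviation of each tested member from its CEBPb mean (vertical axis, log2(FPKM + 1)) in the 6 libraries, coloured by class, with class medians as black bars and the 25th to 75th percentile of all genes tested as grey boxes. The USP median is −0.24 in CEBPb-A replicate 3 and between −0.060 and 0.029 in the other 5 libraries.

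Members have long transcripts, and fold changes followed transcript length across all genes. The longest protein-coding transcript (GENCODE M21, GRCm38) had a median of 4707 bases over the tested members and 3029.5 over all genes, and by class 4745 for USP, 4259 for OTU, 1845 for UCH and 3337 for metalloprotease genes. Across all genes Spearman's rho between length and log2 fold change was −0.55 (9570 genes, not independent replicates), and −0.33 without CEBPb-A replicate 3. Across the 53 members it was −0.37. Members with a transcript of at least 5000 bases were negative in 19 of 21 cases (median −0.16), and all genes of that length in 1650 of 1897 cases (median −0.15). Members with a shorter transcript were negative in 26 of 32 cases (median −0.077), and all shorter genes in 45.2% (median 0.017). These 2 sets were not matched in length, with median transcripts of 3796.5 and 2595 bases. All tested genes in length bins with medians of 3742.5 and 4445 bases had median fold changes of −0.039 and −0.066.

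With the length trend taken out of each library, the members' median was −0.030 and that of all genes 0.0086. Then 32 of 53 members (60.4%) were negative, against 47.1% of all genes. Spearman's rho between length and log2 fold change was −0.022 across all genes. Across the members it was 0.22, so a trend of the other sign was left among them. The USP median was then −0.030 and the OTU median 0.024. Those of UCH and metalloprotease genes were −0.057 and 0.0040, so the OTU and metalloprotease medians changed sign. Among the 6 USP genes with the longest transcripts, Usp34 went from −0.23 to 0.014, Usp24 from −0.24 to −0.012, Usp31 from −0.16 to 0.062, Usp15 from −0.054 to 0.18, Usp6nl from −0.091 to 0.075 and Usp9x from −0.38 to −0.14. Usp18, whose transcript of 1771 bases is short for the class, stood at −0.83, Usp33 at −0.304 and Usp45 at 0.45. With the trend taken out 0 members passed and 3, these same genes, had an unadjusted p under 0.05, against 6.89% of all genes. What sets the trend with length was not tested.

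**Figure D4:**
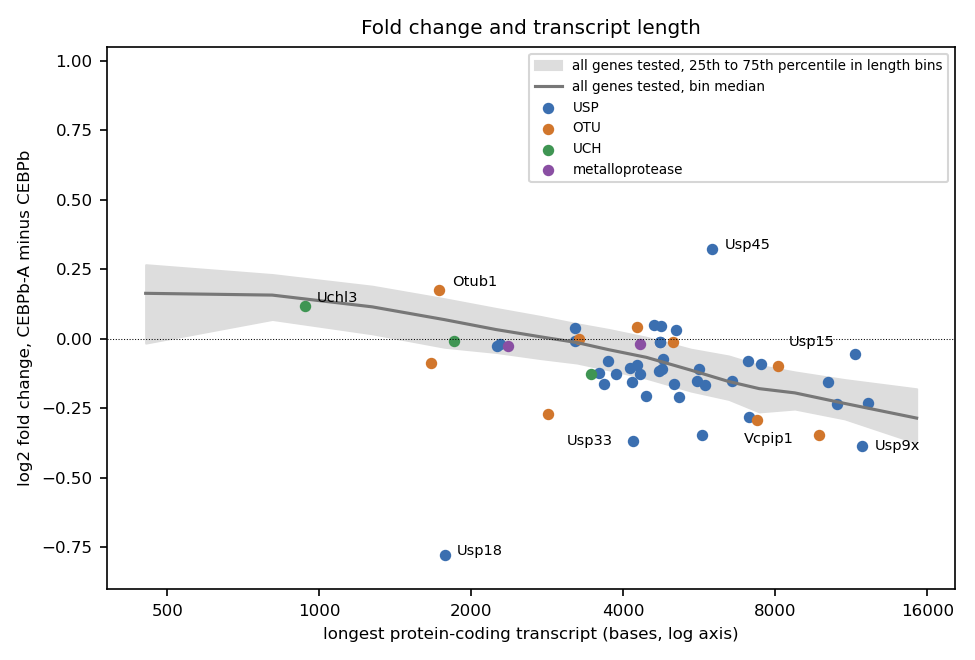
Log2 fold change (vertical axis) against the longest protein-coding transcript in bases (horizontal log axis) for the 53 tested members, coloured by class. The grey line and band give the bin median and the 25th to 75th percentile of all genes tested. The line falls with length. Usp18, Usp33 and Usp45 lie outside the band, as do other members such as Usp15, Usp9x and Vcpip1. By its definition the band also leaves out all genes below the 25th and above the 75th percentile.

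The promoters of the members had a higher median content of G and C than promoters of the whole annotation. Windows of 250 bases before the annotated start (RefSeq, GRCm38.p6) were found for 44 of 56 members in 48 windows, with a median of 65.0% G and C against 52.4% over 32851 windows. The GC box GGGCGG, the core that Sp1-type factors bind, was in 33 of 48 windows (68.8%) on either strand, against 32.7% of all windows. It was searched for after the results of the other motifs were seen. The core of the interferon-stimulated response element (GAAANNGAAA), an NF-κB site and a C/EBP core (TTGCNNAA), sought on both strands, were in 0 of 48, against 2.98%, 3.90% and 9.56% of all windows. No match says only that these letters are not in these windows. The windows of the whole annotation were not limited to genes expressed here, and they were not matched to the members in base makeup. Whether these shares are particular to deubiquitinases was not tested. Usp18, Usp33, Usp1, Usp5, Usp9x, Usp14, Usp22, Usp39, Usp42, Otud6b, Otud7b and Vcpip1 are not among the 44. To show the makeup, the windows of the 2 most abundant members and of Usp45, the member with the largest positive fold change, are printed 5′ to 3′ with each GC box, on either strand, in capitals. They lie at chr16:77013819-77014068 (Usp25), chr2:126707078-126707327 (Usp8) and chr4:21776020-21776269 (Usp45), all on the plus strand. For Usp25 and Usp8 the window ends at the start given in the deposited table. For Usp45 the RefSeq start lies 9114 bases downstream of that start, so its window is inside the gene as the table gives it.
Usp25: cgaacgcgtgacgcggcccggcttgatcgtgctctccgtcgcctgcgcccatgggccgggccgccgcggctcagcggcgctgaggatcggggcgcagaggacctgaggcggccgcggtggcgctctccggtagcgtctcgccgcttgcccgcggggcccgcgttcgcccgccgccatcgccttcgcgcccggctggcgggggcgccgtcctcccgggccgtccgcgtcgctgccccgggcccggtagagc
Usp8: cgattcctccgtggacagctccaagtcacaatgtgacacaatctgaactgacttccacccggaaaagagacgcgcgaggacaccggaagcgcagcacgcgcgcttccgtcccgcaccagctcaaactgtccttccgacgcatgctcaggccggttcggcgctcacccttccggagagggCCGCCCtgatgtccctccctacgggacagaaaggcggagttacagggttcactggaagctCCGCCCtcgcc
Usp45: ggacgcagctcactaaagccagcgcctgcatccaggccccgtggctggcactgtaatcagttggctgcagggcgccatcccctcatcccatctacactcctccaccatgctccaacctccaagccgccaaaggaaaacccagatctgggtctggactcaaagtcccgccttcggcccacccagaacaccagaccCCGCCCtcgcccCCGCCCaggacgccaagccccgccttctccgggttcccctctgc
Usp25 holds 80.0% G and C and no such box, while Usp8 (62.8%) and Usp45 (65.2%) hold 2 each, written as the reverse complement.

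Other genes of ubiquitin removal and their relatives split more evenly in sign, and their difference from the members was not tested. One list was of deubiquitinases outside the naming rule, such as Cyld, Otulin and Tnfaip3. It also held relatives that are not deubiquitinases, such as Prpf8, Pan2, Psmd7 and Cops6. Of its 24 tested genes 12 were negative and 12 positive (median −0.0047, 0 past the threshold). The median transcript of these was 2670.5 bases, shorter than that of the members, and with the length trend taken out their median was 0.019, beside −0.030 for the members. Otulin, which takes apart the linear chains that A20 and its partners bind, stood at 20.3, 18.5 and 20.4 FPKM in CEBPb-A and at 17.0, 16.8 and 18.2 FPKM in CEBPb. Its groups did not overlap, and it did not pass (0.18, SE 0.078, limma adjusted p = 0.588). Cops5, the metalloprotease of the COP9 signalosome, stood at 15.5, 15.2 and 15.5 FPKM against 14.6, 14.1 and 12.5 FPKM (0.16). Of 31 tested cofactors and scaffolds 17 were negative and 14 positive (median −0.026, and 0.027 with the length trend taken out). Atxn7l3, which anchors Usp22 in SAGA, had 13.1, 14.0 and 13.2 FPKM against 14.5, 14.8 and 17.2 FPKM (−0.19), and Shmt2, a metabolic enzyme that binds the BRCC3 complex in the cytoplasm, 7.01, 7.96 and 8.94 FPKM against 6.73, 6.05 and 6.68 FPKM (0.26). Of 20 genes of ubiquitin, its relatives and their activating enzymes 6 were negative and 14 positive (median 0.075), with Sumo3 at 0.21. Proteases of SUMO, NEDD8 and UFM1 split into 5 negative and 6 positive of 11 (median 0.0015), with Ufsp2 at 0.17 and Senp5 at 0.14. With the length trend taken out the medians of these last 2 lists were 0.033 and 0.073. None of these lists had a member past the threshold by limma, and at an unadjusted p under 0.05 they held Shmt2 upward and Isg15 downward.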

How the data were processed

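Per the file headers, the authors deposited 1 table of FPKM for 10539 genes in 6 libraries, all of which were used. The submitters' processing notes name GRCm38 as the build. No label or header names an aligner, quantifier or annotation, or says how multi-mapped reads were handled. The libraries were made with a stranded kit, per the labels' protocols. Low values of genes with 1 annotated transcript showed no whole-read steps (highest periodicity 0.188 to 0.203 per library, where 1 is exact steps), so depth and counting error are unknown.

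From the deposited FPKM, log2(FPKM + 1) was fitted for 9617 genes with a mean of at least 1 FPKM, CEBPb-A minus CEBPb, with limma 3.58.1 (R 4.3.3) with an intensity trend and with group as its single term. Tests were two-sided, and p-values were adjusted over all 9617 genes by Benjamini-Hochberg and read at 0.05. The fit was tested on simulated data. Transcript lengths were the longest protein-coding transcript of GENCODE M21 (9570 of the tested genes). The length trend was taken out per library with loess (span 0.5). Replicate numbers were not used in the fit.

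The members and lists were chosen with earlier results of these data known. Named were all OTU, UCH and metalloprotease members. Of the USP class, the rule named those with an unadjusted p under 0.05, the 5 highest in FPKM, the 3 largest fold changes each way and 10 with textbook roles. From each other list up to 4 genes were named by p. One gene of the interferon-induced list is not reported here, and the list's values leave it out. The 6 USP genes whose groups did not overlap and the 6 with the longest transcripts were added after their values were seen. Also tried were pseudocounts of 0.1 and of 0.5, the unfiltered table, a mean of at least 5 FPKM, upper-quartile, median-of-ratios and quantile scaling, a robust limma prior, limma with no trend, a block for replicate number, leaving out single libraries, the length trend taken out, and a fold change of at least 1.5. Taking out the length trend without CEBPb-A replicate 3 was added after seeing the data.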

Additional observations from a re-analysis of the deposited data

How the results depend on the processing

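No member passed the threshold in the fit reported or in any of the 18 alternative fits, or with a fold change of at least 1.5, and the lowest adjusted p of a member was 0.349. The number of members at an unadjusted p under 0.05 ran from 2 to 9 (3.57% to 17.0% of those tested, where all genes gave 4.51% to 13.4%), and their median log2 fold change was negative throughout (−0.14 to −0.015). It was −0.015 with the length trend taken out and without CEBPb-A replicate 3, chosen after seeing the data. The count over all genes was 5 and became 0 at a mean of at least 5 FPKM, 2 after quantile normalization, 8 with the length trend taken out, with or without CEBPb-A replicate 3, and 1 to 9 with single libraries left out. With the replicate block it was 1, and 9 of 53 members (17.0%) had an unadjusted p under 0.05, as did 13.4% of all genes. Deviations of same-numbered libraries correlated at 0.099, 0.25 and 0.26, each number best with its own, and no label says that a number marks a shared source. Signs were followed only for the genes chosen for naming, by the rule or after their values were seen. Members outside that set also changed sign, such as Usp20 and Usp32 without CEBPb-A replicate 3 (−0.14 and 0.045). Within the set, single genes changed sign as follows. Median-of-ratios scaling gave Otud6b 0.015, Uchl5 0.0054, Usp14 0.0057 and Zranb1 0.0046, and upper-quartile scaling Otud6b 0.00158. Quantile normalization gave Brcc3 0.035, Otud6b 0.024, Stambp 0.021, Uchl5 0.032, Usp14 0.00763, Usp21 0.000169 and Zranb1 0.028. With the length trend taken out Brcc3 was 0.0497, Otud6b 0.024, Otud7b 0.083, Uchl3 −0.0095, Usp14 0.076, Usp15 0.18, Usp31 0.062, Usp34 0.014, Usp36 0.012, Usp6nl 0.075 and Zranb1 0.086. Without CEBPb-A replicate 3 as well, Otud6b was 0.0038, Otud7b 0.033, Stambp 0.027, Uchl5 0.043, Usp14 0.14, Usp15 0.13, Usp24 0.023, Usp25 0.0585, Usp31 0.062, Usp34 0.055, Usp5 −0.024 and Usp6nl 0.056. With single libraries left out, signs changed within −0.12 to 0.12 for Brcc3, −0.20 to 0.051 for Cebpb, −0.19 to 0.067 for Otud3, −0.02246 to 0.096 for Otud5, −0.088 to 0.063 for Otud6b, −0.094 to 0.041 for Stambp, −0.103 to 0.072 for Uchl5, −0.12 to 0.105 for Usp14, −0.13 to 0.023 for Usp15, −0.11 to 0.13 for Usp21, −0.18 to 0.026 for Usp25, −0.026 to 0.087 for Usp5 and −0.068 to 0.072 for Zranb1. The cause of these changes was not tested.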
